A study of Mus musculus with 12 samples.

Results

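Skin of mice that lack the aryl hydrocarbon receptor was compared with skin of heterozygous mice on day 2 of treatment with imiquimod (IMQ) cream. The comparison used 6 of the 12 arrays of the series, namely the 3 titled as knockout (*Ahr*-/-) and the 3 titled as heterozygous (*Ahr*+/-) skin after 2 days of imiquimod. Each of the 18193 genes was read from 1 probe set annotated to that gene alone, the set with the highest mean signal over all 12 arrays. The other 6 arrays held untreated skin of the same genotypes, 3 of each, and were used for the spread between arrays and for the genotype difference without cream.

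The *Ahr*+/- mice were the littermate controls and carried 1 functional allele, so no wild-type skin enters the comparison. The *Ahr*-/- mice lacked the receptor in all cells, and RNA was taken from whole skin of the shaved back. The untreated skin was collected at day 0, without a control cream. Strain, age and sex are not given in the labels of these arrays. In the labels the replicates are called biological but no animal is named, so p-values measure the spread between these arrays, and 3 arrays a group limit the precision.

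The aryl hydrocarbon receptor (AhR) is a ligand-activated transcription factor that moves to the nucleus on binding dietary, microbial or environmental ligands, pairs with ARNT and binds a short DNA element. Its best known targets are enzymes of xenobiotic metabolism and its own repressor, *Ahrr*. IMQ stimulates Toll-like receptors of immune cells, and on mouse skin it causes an inflammation with thickened epidermis and neutrophil influx that is used as a model of psoriasis. As keratinocytes move upwards they replace basal keratins with suprabasal ones and then build the cornified envelope and the lipid barrier.

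The DNA element of AhR has the core GCGTG, and sites of AP-1, the Jun and Fos dimers that the study followed, read TGANTCA, where N is any base. Promoter windows of 300 bases, 250 before and 50 after the start of transcription, were taken from RefSeq (mouse build GRCm38.p6) and searched on both strands for 14452 of the genes. A gene was counted where any of its windows held the motif, and 2661 genes had more than 1 window. The GCGTG core was found for 39.3% of genes called higher in *Ahr*-/- skin (116 of 295) and 47.4% of genes called lower (127 of 268). Of all searched genes, 47.8% had it (6912 of 14452). The longer form TNGCGTG, which contains the core, was found for 6.4%, 10.8% and 8.0% of these genes, and the AP-1 motif for 10.2%, 9.7% and 7.5%. These are counts of letters and say nothing of binding. The 7 stretches of 30 bases below come from genes whose values follow, an AhR target, a neutrophil chemokine, a keratin and 2 tissue-remodelling genes, with the motif in capitals (CACGC is GCGTG read on the other strand). They lie at chr13:74292422-74292451, chr13:74292397-74292426 and chr13:74292342-74292371 (*Ahrr*, minus strand, 107, 82 and 27 bases before the start), chr5:90903714-90903743 (*Cxcl2*, plus strand), chr11:99389389-99389418 (*Krt10*, minus strand, 41 bases before), chr7:24462402-24462431 (*Plaur*, plus strand, 69 bases before) and chr9:7502267-7502296 (*Mmp10*, plus strand, 63 bases before).
Ahrr, core farthest from the start: atattgaaagggcGCGTGgcaggcagggac
Ahrr, core between these: gggacaaggatgtGCGTGcgccctctgccg
Ahrr, core nearest the start: ggcggggcggctcGCGTGctggggtggggc
Cxcl2, core on both strands: gaggcaggcagctCACGCgcGCGTGtcccc
Krt10, core: agcacctgtgagaCACGCcctctcagtata
Plaur, AP-1 motif: aacccctggagcTGACTCActctttagcaa
Mmp10, AP-1 motif: atagcacccatgTGAGTCAtgcttagtgac
Neither the GCGTG core nor TGANTCA stood in the windows of *Acod1*, *Ankrd1* or *Krt77*, 3 of the genes that differed most.

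Values are log2 signals, so a difference of 1 is a 2-fold change in signal, and every difference is *Ahr*-/- minus *Ahr*+/- on day 2. A gene was called where limma gave an adjusted p under 0.05 over all genes and the fold was at least 1.5. Of the 18193 genes, 385 were called higher in *Ahr*-/- skin (2.12%) and 339 lower (1.86%), 3.98% in either direction. The difference reached 4-fold for 63 of the higher and 25 of the lower genes. Over all genes the median difference was 0.06, and every *Ahr*-/- array lay above every *Ahr*+/- array for 18.0% of genes and below for 15.0%. These shares are the background for all counts of list members below. Without cream, 0.00550% of genes were called, and none of the 724 genes was among them. The genotype difference itself differed between treated and untreated skin for 1.32% of all genes, and for 95 of the higher and 109 of the lower genes.

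**Figure D1:**
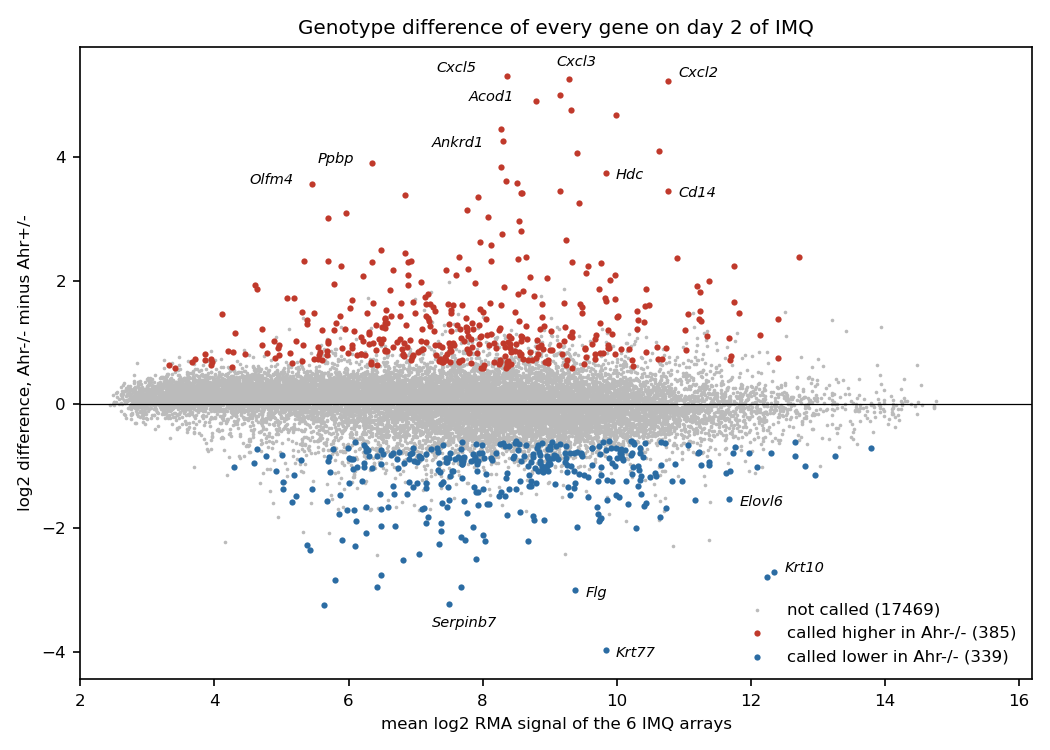
Each point is a gene, with its mean log2 signal over the 6 IMQ arrays on the horizontal axis and the log2 difference, *Ahr*-/- minus *Ahr*+/-, on the vertical axis. The 385 genes called higher reach 5.31 (*Cxcl5*), and the 339 called lower reach -3.98 (*Krt77*).

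The 6 arrays held skin. *Krt14* lay at 14.64 to 14.84, *Col3a1* at 13.75 to 14.08, *Acta1* of skeletal muscle at 14.29 to 14.76 and *Adipoq* of adipocytes at 11.45 to 12.19, while *Gfap* of brain and *Alb* of liver stayed at or below 6.20. The deposited values hold no detection calls, so signals up to 6.20 are not shown to be above background, and differences from them are differences in signal only. Every *Ahr*+/- array lay at or below that level for 98 of the 385 higher genes, and every *Ahr*-/- array for 54 of the 339 lower genes. In bulk skin, fewer cells of a type and less RNA per cell cannot be told apart. Genotype moved together with a sign of RNA quality. The 3' minus 5' difference of the *Gapdh* control sets was 0.14, 0.17 and 0.28 in *Ahr*+/- replicates 1, 2 and 3 and 1.17, 1.52 and 0.28 in *Ahr*-/- replicates 1, 2 and 3, so only *Ahr*-/- replicate 3 matched the controls. This replicate was also the *Ahr*-/- array nearest to the *Ahr*+/- mean for 224 of the 385 higher and 164 of the 339 lower genes. The *Ahr*+/- arrays also differed among themselves, since replicate 1 was the one nearest to the *Ahr*-/- mean for 278 of the 385 higher and 263 of the 339 lower genes. The spread was pooled over all 4 groups, which understates it for the chemokines that varied most among the *Ahr*+/- arrays.

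Each called gene was therefore also estimated with the *Gapdh* difference as a covariate, and with replicate 3 as the only *Ahr*-/- array after IMQ. All 385 and all 339 genes kept their sign in both fits. The groups of arrays did not overlap for 384 and 335 of these genes, so replicate 3 alone could hardly reverse a sign. The median difference of the higher genes was 1.10 with all arrays, 0.97 with the covariate and 0.98 with replicate 3 alone, and that of the lower genes was -0.99, -0.89 and -0.90. Both fits have wide errors, and the second assumes that the lone array varies like the other groups. They called 27 and 36 genes higher, and 0 and 7 lower. Leaving out 1 array at a time left 138 to 724 genes called higher and 57 to 665 called lower, and 125 and 47 of the genes were called every time. The genes called higher in every setting tried numbered 19, among them *Ppbp*, *Ccl4*, *Acod1*, *Hdc*, *Trem1*, *Osm*, *Plaur*, *Mmp10* and *Ankrd1*, and no lower gene was called in every setting. Where the estimate of a called gene described below moved by more than 1.5 times in these fits, a value is given beside it, and likewise where averaging all probe sets of a gene moved it that far or lost the call.

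**Figure D2:**
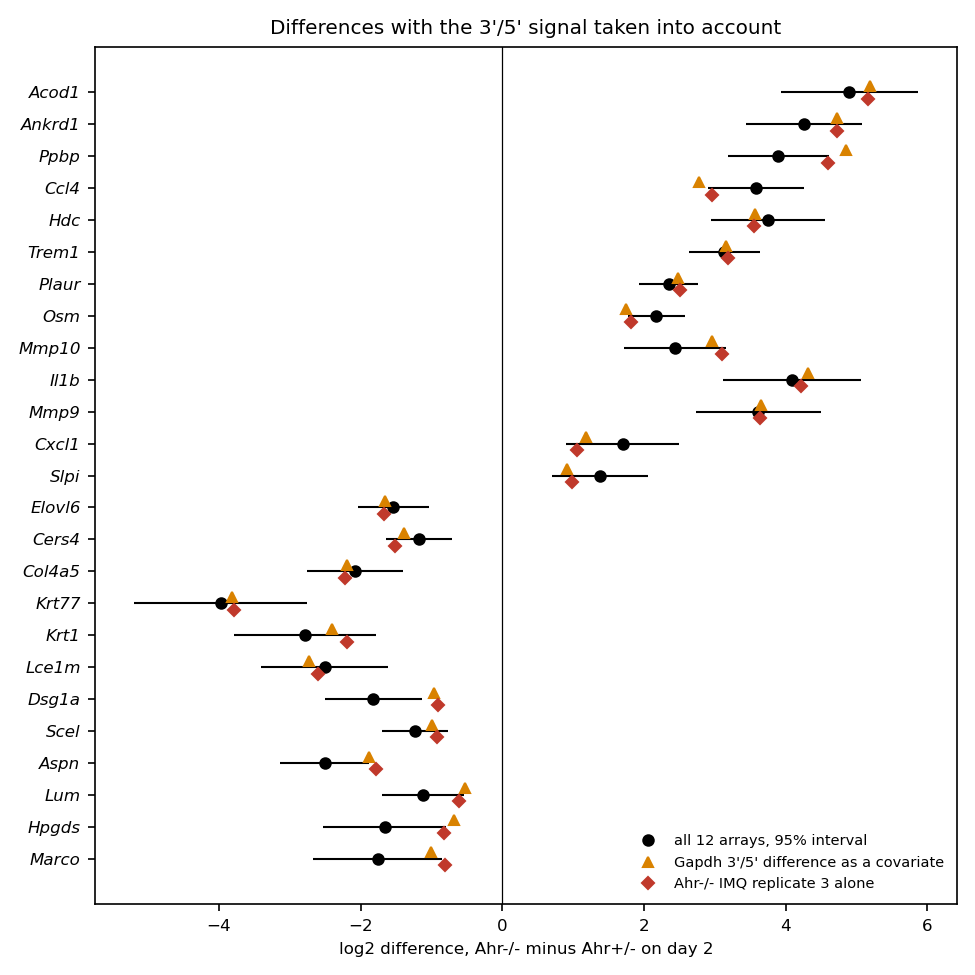
Log2 difference on day 2 (horizontal axis) for 25 called genes, from all 12 arrays with its 95% interval (black), with the *Gapdh* 3'/5' difference as a covariate (triangles) and with *Ahr*-/- replicate 3 alone (diamonds). *Plaur* stayed between 2.35 and 2.50, whereas *Marco* moved from -1.76 to -0.81.

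*Ahr* mRNA did not separate the groups. Its signal was 9.79, 10.26 and 10.27 in *Ahr*+/- replicates 1, 2 and 3 and 9.74, 9.07 and 9.87 in *Ahr*-/- replicates 1, 2 and 3, a difference of -0.55 ± 0.29 (SE) with an adjusted p of 0.302 by limma. It came to -0.21 with the *Gapdh* covariate. The sources used here do not place the probe set inside or outside the deleted part of the gene, so the signal does not test the genotype labels. Of 8 measured AhR targets, *Ahrr* and *Aldh3a1*, an aldehyde dehydrogenase, were called lower, against 1.86% of all genes. *Ahrr*, whose promoter stretches are printed above, read 5.83, 6.27 and 6.29 in *Ahr*+/- skin and 5.52, 4.52 and 4.27 in *Ahr*-/- skin, a difference of -1.36 ± 0.32 with an adjusted p of 0.0353 by limma. The *Ahr*-/- values lay below every control value, replicate 1 only by 0.31. The *Ahr*-/- signals and that of *Ahr*+/- replicate 1 were not shown to be above background, and the other controls stood just above 6.20. The call was lost in 11 of 27 settings for *Ahrr* and in 10 for *Aldh3a1*, for both also with the *Gapdh* covariate. *Aldh3a1* differed by -1.41 (adjusted p = 0.0346 by limma), and *Cyp1a1*, the classical AhR-induced enzyme, by -1.46 without being called (adjusted p = 0.0529 by limma). The median of the 8 targets was 0.11. Among 40 measured neighbours of *Ahr* on chromosome 12, 20 on each side, 1 was called, *Sostdc1*, a secreted antagonist of BMP and Wnt signals, which was lower by 1.80. Of these neighbours 10 had an unadjusted p under 0.05, against 21.0% of all genes.

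The list of neutrophil-attracting CXC chemokines and their receptors had the highest share of called genes among the 66 lists. Of 8 measured chemokines and receptors 7 were called higher and none lower, against 2.12% of all genes, and their median difference was 2.90 (0.21 without cream). The mean signal of the 8 genes was 8.44, 6.92 and 5.90 in *Ahr*+/- replicates 1, 2 and 3 and 10.25, 10.04 and 10.35 in *Ahr*-/- replicates 1, 2 and 3, so the *Ahr*-/- arrays lay within 0.31 of each other while the controls spread over 2.54. *Cxcl5* read 8.77, 5.40 and 2.97 in the controls and 10.94, 10.29 and 11.84 in *Ahr*-/- skin, a difference of 5.31 ± 1.00 with an adjusted p of 0.0119 by limma. *Cxcl3* ranged from 3.73 to 10.18 in the controls and from 11.85 to 12.03 in *Ahr*-/- skin, a difference of 5.26. *Cxcl2*, whose promoter stretch is printed above, ranged from 5.99 to 10.67 and from 13.17 to 13.57, a difference of 5.23. In these genes the groups did not overlap, but the lowest controls were not shown to be above background and the size of the difference depended on which control was taken. *Ppbp*, the precursor of platelet-derived CXCL7, was flat in the controls at 4.61, 4.47 and 4.11 and read 8.62, 7.27 and 9.0 in *Ahr*-/- skin. Its signal was higher by 3.90 ± 0.33 (adjusted p = 7.1e-05 by limma), against controls not shown to be above background, and the lowest *Ahr*-/- array stood 2.66 above the highest control. *Cxcl1* was higher by 1.70 (adjusted p = 0.0253 by limma), with estimates of 1.18 with the *Gapdh* covariate and 1.06 from *Ahr*-/- replicate 3 alone, and of 1.22 without a call when its probe sets were averaged. *Cxcr2*, a neutrophil receptor of CXC chemokines, read 7.83, 7.41 and 6.88 against 9.03, 9.15 and 9.63 and was higher by 1.90. *Pf4*, a platelet chemokine, was higher by 1.38.

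Of 18 CC chemokines 2 were called higher, and the median was 0.31. *Ccl3*, which attracts monocytes and neutrophils, read 8.54, 5.98 and 5.43 in the controls and 11.40, 11.99 and 11.57 in *Ahr*-/- skin, a difference of 5.004 (adjusted p = 0.000714 by limma). Control replicate 1 stood far above the other controls, and the groups did not overlap. *Ccl4*, which attracts monocytes and lymphocytes, read 7.08, 6.63 and 6.48 in the controls and 10.04, 11.20 and 9.69 in *Ahr*-/- skin. It was 12-fold higher (3.58 ± 0.31, adjusted p = 8.37e-05 by limma) without overlap. Of 10 CC receptors, *Ccr1*, a receptor of CCL3 found on neutrophils and monocytes, was higher by 3.45 and *Ccrl2*, a chemerin-binding receptor, by 1.35. Of 13 other CXC genes, *Cxcl14*, an epidermal chemokine, was higher by 2.09, and *Cxcr4*, the CXCL12 receptor that retains neutrophils in marrow, by 2.07. *Cxcr4* fell to 1.23 with the *Gapdh* covariate.

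Neutrophil genes were higher as well. Of 27 measured neutrophil markers 14 were called higher and none lower, the median difference was 1.46, and the mean signal of the 27 was 7.61, 6.91 and 6.80 in the controls against 8.67, 8.90 and 8.80 in *Ahr*-/- skin. *Trem1*, which amplifies the neutrophil response to bacteria, read 6.82, 5.93 and 5.86 against 9.19, 9.43 and 9.39, a difference of 3.13 ± 0.23 with an adjusted p of 3.42e-05 by limma. *Cd177*, a neutrophil surface protein, read 4.53, 4.42 and 4.33 against 7.54, 7.98 and 7.01. The lowest *Ahr*-/- array stood 2.37 above the highest control for *Trem1* and 2.48 above it for *Cd177*. *Mmp8*, neutrophil collagenase, read 8.56, 5.45 and 5.09 in the controls and averaged 10.2 ± 0.19 (SD, n = 3) in *Ahr*-/- skin. Here control replicate 1 stood far above the other controls and still 1.44 below the lowest *Ahr*-/- array. Also higher were the granule genes *Ngp* (2.30) and *Pglyrp1* (2.24), and *Olfm4* (3.56), which marks a subset of neutrophils. *Mpo*, myeloperoxidase, whose mRNA is made in neutrophil precursors, stayed at 4.26 to 5.04 on all 6 arrays. Of 10 colony-stimulating factors and receptors 3 were called. *Csf3*, or G-CSF, which drives the output of neutrophils from marrow, read 8.38, 6.73 and 5.63 against 9.61, 10.13 and 9.25 (2.75, adjusted p = 0.0116 by limma), and its receptor *Csf3r* was higher by 2.30. *Csf2* differed by 0.05 (adjusted p = 0.894 by limma), but at 4.19 to 4.80 on the 6 arrays it was not shown to be above background.

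**Figure D3:**
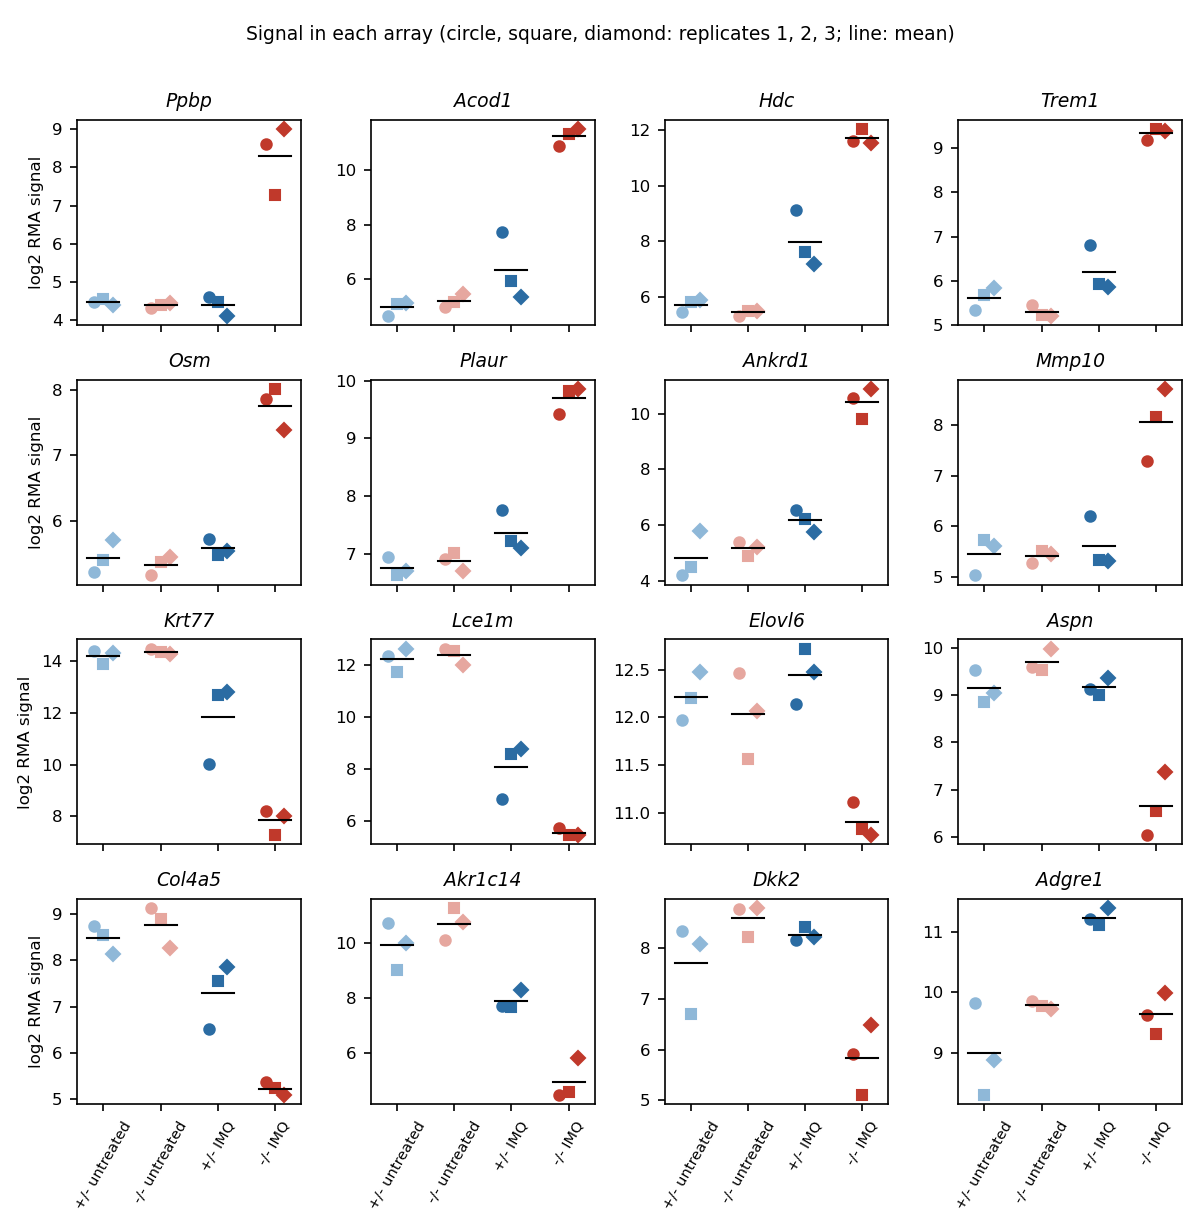
Log2 signal (vertical axis) of 16 genes in every array, by genotype and treatment, with the group mean as a line. *Ppbp* and *Osm* lay near the untreated values in *Ahr*+/- IMQ skin and above them in *Ahr*-/- IMQ skin, and *Elovl6*, *Aspn*, *Akr1c14* and *Dkk2* fell below the other groups in *Ahr*-/- IMQ skin.

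Myeloid receptors and enzymes followed the same direction. Of 20 myeloid receptors 10 were called higher and none lower, with a median of 1.07. *Clec4d* and *Clec4e*, C-type lectins that sense mycobacterial and fungal glycolipids, were higher by 4.67 and 4.45, *Mcemp1* by 3.42 and *Cd300lf* by 3.41. Of 14 immunometabolic genes 4 were called higher. *Acod1*, which makes itaconate in activated myeloid cells, read 7.73, 5.95 and 5.36 in the controls and 10.89, 11.34 and 11.51 in *Ahr*-/- skin, higher by 4.90 ± 0.45 (adjusted p = 9.8e-05 by limma). Its estimate was 5.19 with the *Gapdh* covariate and 5.16 from *Ahr*-/- replicate 3 alone, with adjusted p of 0.0103 and 0.0214 by limma. *Hdc*, the histamine-forming enzyme of mast cells and neutrophils, read 9.11, 7.60 and 7.18 against 11.60, 12.02 and 11.51. The 3 *Ahr*-/- arrays lay within 0.51 of each other and at least 2.40 above the controls. *Arg2* and *Odc1*, which turn arginine into ornithine and ornithine into polyamines, were higher by 2.62 and 1.08.

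Macrophage genes went both ways. Of 20 monocyte and macrophage markers 3 were called higher and 2 lower, with a median of 0.10. *Chil3* (Ym1, a chitinase-like protein) was higher by 4.76, *Cd14*, the co-receptor for lipopolysaccharide, by 3.45 and *Clec7a* (dectin-1, a receptor of fungal glucans) by 2.28. *Adgre1*, a surface receptor that marks tissue macrophages, read 11.21, 11.11 and 11.39 in the controls and 9.62, 9.31 and 9.99 in *Ahr*-/- skin, lower by 1.60 (adjusted p = 0.0119 by limma) without overlap. *Marco*, a scavenger receptor, read 8.62, 8.46 and 8.87 against 5.93, 6.90 and 7.83, lower by 1.76, but by 1.01 with the *Gapdh* covariate and by 0.81 from *Ahr*-/- replicate 3 alone. None of 11 MHC class II genes was called. Of these 11 genes 7 lay lower on every *Ahr*-/- array, against 15.0% of all genes. The median of the 11 was -0.58, and *H2-Aa* differed by -0.81 (adjusted p = 0.0957 by limma). None of 24 T cell and cytotoxic genes or 9 B lineage genes was called, with medians of 0.10 and 0.15. Among 19 Langerhans and dendritic cell markers, *Cd80*, a co-stimulatory ligand, was higher by 1.30 and *Batf3*, a factor of cross-presenting dendritic cells, lower by 0.86. *Cd80* came to 0.69 with the *Gapdh* covariate.

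Of 18 IL-1 cytokines, receptors and inflammasome genes 5 were called higher, with a median of 0.33. *Il1b* read 9.95, 8.08 and 7.74 in the controls and 12.55, 12.69 and 12.81 in *Ahr*-/- skin. *Il18rap*, a subunit of the IL-18 receptor, was higher by 2.19 ± 0.19 (adjusted p = 8.29e-05 by limma), the signalling receptor *Il1r1* by 1.51, the decoy receptor *Il1r2* by 1.46 and *Nlrp3*, the inflammasome sensor, by 1.02. *Il1r1* came to 0.91 with its probe sets averaged. IL-36 genes pointed the other way, with a median of -1.17 over 6 genes. *Il1f5*, the IL-36 receptor antagonist, read 11.13, 12.32 and 12.36 against 10.73, 10.03 and 10.43 and was lower by 1.54 (adjusted p = 0.0105 by limma). The agonists *Il1f6* and *Il1f9* differed by -1.51 and -0.84 and were not called (adjusted p = 0.109 and 0.135 by limma).

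Of 12 IL-6 family genes 3 were called higher. *Osm*, oncostatin M of neutrophils and macrophages, was flat in the controls at 5.72, 5.48 and 5.53 and read 7.86, 8.02 and 7.39 in *Ahr*-/- skin, with an adjusted p of 7.1e-05 by limma. *Il6* was higher by 2.38, and the feedback inhibitor *Socs3* by 1.5. Of 14 TNF family genes, *Tnf* was higher by 1.23, *Ltb* (lymphotoxin beta) by 1.51 and *Tnfsf14* (LIGHT) by 1.31, or by 0.86 with its probe sets averaged. Of 19 genes of the IL-23, IL-17 and IL-20 axis only *Il17ra*, the receptor subunit, was called (5.26%, against 3.98% of all genes). It was higher by 1.11, but was not called at the 0.84 of averaged probe sets. *Il17a* differed by 0.07 and *Il23a* by 0.58 (adjusted p = 0.823 and 0.27 by limma). *Il17a* read 5.21 to 5.60 on the 6 arrays and was not shown to be above background. None of 24 type I interferon-stimulated genes, 16 IFN-gamma response genes or 7 Jun and Fos subunits was called, with medians of 0.19, -0.37 and 0.30. *Junb*, which differed most of the 7, read 8.72, 8.91 and 7.90 in the controls and 9.62, 9.95 and 8.91 in *Ahr*-/- skin. Its signal was higher by 0.98 without being called (adjusted p = 0.0931 by limma), and by 0.46 with the *Gapdh* covariate. The study reports higher *Junb* mRNA in *Ahr*-/- skin early in IMQ treatment. Of 17 NF-kB genes, *Traf1* (1.66), *Nfkbid* (1.57) and *Tnip1* (0.59) were called higher. *Nfkbid* came to 0.97 with the *Gapdh* covariate. All 3 act in or restrain NF-kB signalling.

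Antimicrobial and acute phase genes were higher in 6 of 21 members, with a median of 1.03. *Ptx3*, a soluble pattern recognition protein, read 9.02, 6.77 and 6.36 in the controls and 11.36, 10.85 and 12.10 in *Ahr*-/- skin, higher by 4.06 (adjusted p = 0.0049 by limma), or by 2.04 with its probe sets averaged. The protease inhibitor *Slpi* was higher by 1.38 and *Wfdc21* by 1.60. *Slpi* came to 0.92 with the *Gapdh* covariate. *Saa2* was called (1.24) although its groups overlapped. *Lcn2* differed by 1.49 (adjusted p = 0.0771 by limma). None of 11 S100 genes was called. *S100a8* lay between 14.15 and 14.74 and *S100a9* between 13.84 and 14.92, near the top of the array's range. Differences may be compressed there, which was not tested. The mean signal of the 11 genes was 11.02 to 11.33 on the 6 arrays, and their median difference was 0.26.

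**Figure D4:**
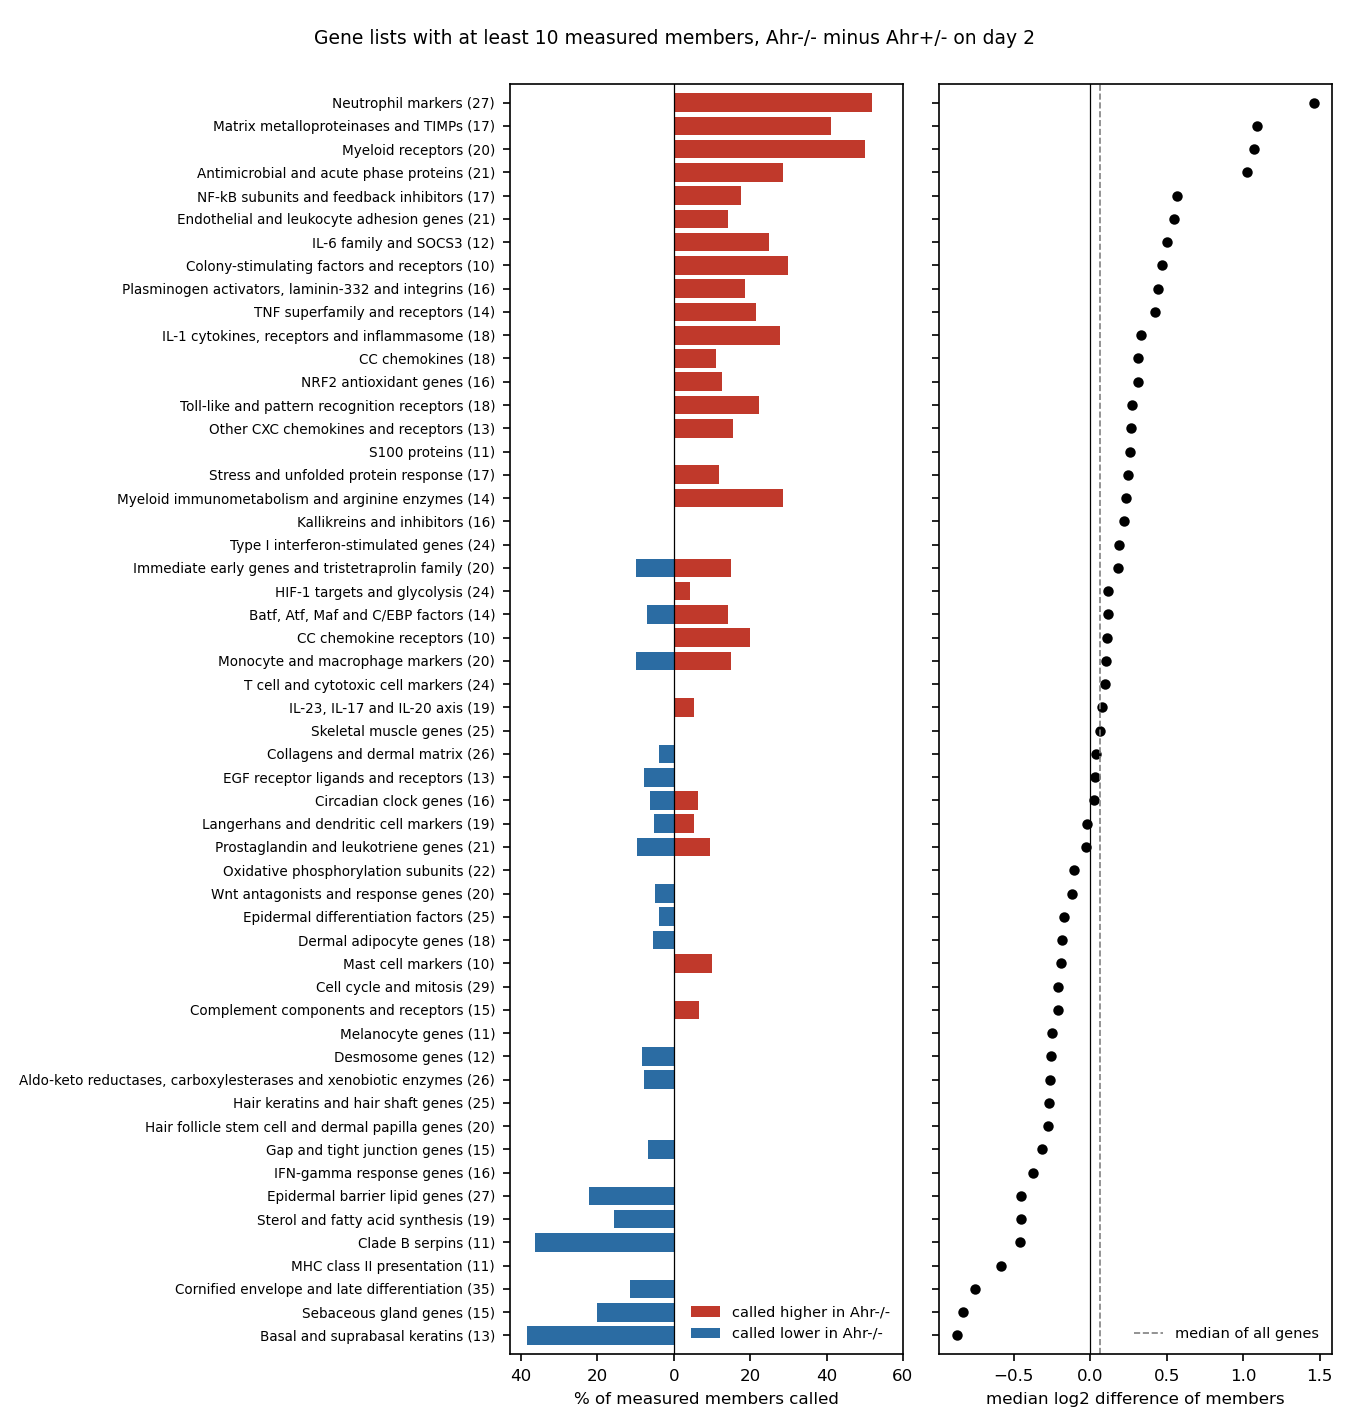
For each gene list with at least 10 measured members (number in brackets), the share of members called higher (right) or lower (left) in *Ahr*-/- skin, in percent, and the median log2 difference, with the median of all genes as a dashed line. Neutrophil markers have the highest median (1.46) and basal and suprabasal keratins the lowest (-0.87).

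Suprabasal keratins were lower. Of 13 basal and suprabasal keratins 5 were called lower and none higher, against 1.86% of all genes, and the median was -0.87. The mean signal of the 13 was 9.84, 10.65 and 10.73 in *Ahr*+/- replicates 1, 2 and 3 and 9.23, 9.30 and 9.41 in *Ahr*-/- replicates 1, 2 and 3. *Krt77*, a suprabasal keratin of mouse epidermis, showed the largest fall among called genes. It read 10.01, 12.67 and 12.80 in the controls and 8.23, 7.28 and 8.03 in *Ahr*-/- skin (-3.98 ± 0.56, adjusted p = 0.00251 by limma). The estimate was -3.81 with the *Gapdh* covariate and -3.79 from *Ahr*-/- replicate 3 alone. With the covariate *Krt77* was not called (adjusted p = 0.156 by limma). Control replicate 1 stood well below the other controls and 1.78 above the nearest *Ahr*-/- array. *Krt10*, with the promoter stretch given above, was lower by 2.71, *Krt1* by 2.79, *Krt79* of hair follicle ducts by 1.14 and *Krt23* by 0.92. *Krt5* and *Krt14* of the basal layer differed by -0.18 and -0.02 (adjusted p = 0.623 and 0.945 by limma). *Krt6a* and *Krt16*, keratins of the wound and psoriatic epidermis, differed by 0.26 and 0.05, at signals of 13.90 to 14.45. Of the 9 keratins of hyperproliferative epidermis only *Krt18*, a keratin of simple epithelia, was called (0.80). At 4.89 to 6.18 on the 6 arrays it was not shown to be above background, and it lost the call in 16 of 27 settings.

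**Figure D5:**
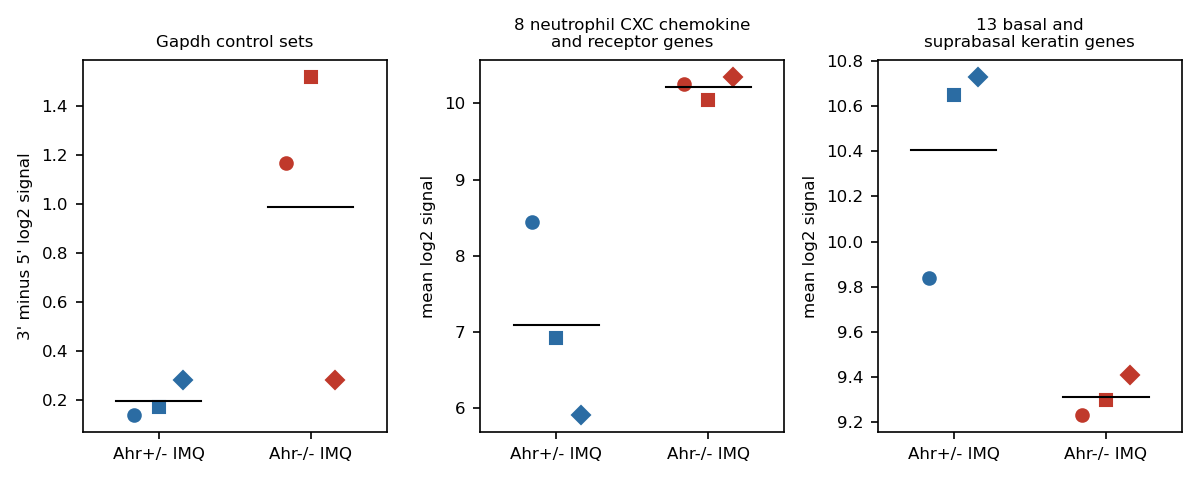
Values in each of the 6 IMQ arrays with the group mean as a line, for the 3' minus 5' log2 signal of *Gapdh*, the mean log2 signal of 8 neutrophil chemokine and receptor genes and that of 13 keratins. *Ahr*-/- replicate 3 matched the controls in the *Gapdh* panel (0.28) and the other *Ahr*-/- arrays in the chemokine and keratin panels (10.35 and 9.41).

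Genes of the cornified layer were lower in part. Of 35 genes of the cornified envelope 4 were called lower, against 1.86% of all genes, and none higher. On every *Ahr*-/- array 9 lay lower, against 15.0% of all genes, and the median was -0.75. *Lce1m*, a late cornified envelope protein, read 6.84, 8.59 and 8.78 in the controls and 5.74, 5.48 and 5.47 in *Ahr*-/- skin (-2.51, adjusted p = 0.00593 by limma). *Flg*, which encodes filaggrin, read 9.32, 11.51 and 11.83 against 6.83, 7.35 and 9.46. It was called lower by 3.01 although *Ahr*-/- replicate 3 stood above control replicate 1, and came to -1.57 with the *Gapdh* covariate (adjusted p = 0.878 by limma). *Scel* and *Ppl*, envelope scaffold proteins, were lower by 1.23 (0.60 with averaged probe sets) and 0.99, and *Lor*, which encodes loricrin, differed by -2.20 without being called (adjusted p = 0.0594 by limma). None of 9 *Sprr* genes was called, and their median was 0.41. The desmosomal cadherin *Dsg1a* was lower by 1.82, but by 0.96 with the *Gapdh* covariate, and the tight junction gene *Cldn1* by 1.12. *Cldn1* came to -0.38 and was not called with its 4 probe sets averaged. Of 11 clade B serpins, inhibitors of proteases in the upper epidermis, 4 were called lower. *Serpinb12* read 7.79, 9.65 and 10.01 against 6.21, 5.30 and 7.10, *Serpinb7* was lower by 3.22 with overlapping groups, *Serpinb3a* by 1.37 and *Serpinb8* by 0.97. *Serpinb7* came to -2.06 with the *Gapdh* covariate.

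Barrier lipid genes were called lower in 6 of 27 members and higher in none, with a median of -0.45. *Elovl6*, which elongates palmitate, read 12.14, 12.72 and 12.48 in the controls and 11.12, 10.83 and 10.77 in *Ahr*-/- skin (-1.54 ± 0.23, adjusted p = 0.00337 by limma). The lowest control lay 1.02 above the highest *Ahr*-/- array. With the *Gapdh* covariate the estimate was -1.66 without a call (adjusted p = 0.123 by limma). *Far2*, which makes fatty alcohols for wax esters, was lower by 1.67, the lipoxygenase *Alox12* by 1.25, the ceramide synthase *Cers4* by 1.18, and the ceramidases *Acer1* and *Asah2* by 1.16 and 1.00. *Alox12* came to -0.72 with the *Gapdh* covariate and -0.70 with its probe sets averaged. Of 19 genes of sterol and fatty acid synthesis, *Msmo1*, *Fdps* and *Hmgcs1* of the cholesterol pathway were lower by 1.08, 0.96 and 0.84. *Fdps* came to -0.61 with the covariate, and to -0.47 without a call with its probe sets averaged. Of 15 sebaceous gland genes 3 were called lower, *Krt79*, *Far1* (by 0.86) and *Scd1*, the stearoyl-CoA desaturase (by 0.83), and the median was -0.83. None of 29 cell cycle genes was called, with a median of -0.21.

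Genes of wounded and remodelled tissue were higher. Of 17 matrix metalloproteinases and inhibitors 7 were called higher and none lower, with a median of 1.09. *Mmp10*, made by keratinocytes at wound edges, read 6.20, 5.34 and 5.32 in the controls and 7.30, 8.16 and 8.72 in *Ahr*-/- skin. *Mmp9* read 7.24, 6.46 and 5.94 against 9.83, 10.47 and 10.19, and the collagenase *Mmp13* was higher by 3.35, both without overlap. Higher too were *Adam8* (1.67), *Adamts4* (1.61) and the inhibitor *Timp1* (1.59). Of 16 plasminogen activator, laminin and integrin genes 3 were called. *Plaur*, the urokinase receptor, whose AP-1 motif is printed above, read 7.76, 7.22 and 7.10 against 9.43, 9.83 and 9.86 (2.35 ± 0.19, adjusted p = 6.07e-05 by limma). The matrix protein *Tnc* was higher by 2.24 and *Lama3*, a chain of laminin-332, by 0.90. *Lama3* came to 0.40 and was not called with its 2 probe sets averaged. Among prostaglandin and leukotriene genes, *Ptgs2* (cyclooxygenase-2) was higher by 1.62 and the leukotriene B4 receptor *Ltb4r1* by 0.91, whereas *Hpgd*, which degrades prostaglandins, was lower by 1.04 and the prostaglandin D synthase *Hpgds* by 1.66. *Ltb4r1* and *Hpgds* came to 0.31 and -0.69 with the *Gapdh* covariate.

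Endothelial genes leaned upwards, with 20 of 21 differences above 0 (10573 of 18193 over all genes) and a median of 0.54. Of the 21 genes 13 lay higher on every *Ahr*-/- array, against 18.0% of all genes, but 3 were called. *Selp*, P-selectin, on which leukocytes roll, was higher by 2.06, VE-cadherin *Cdh5* by 1.10 and endoglin *Eng* by 0.81. *Eng* came to 0.43 with the *Gapdh* covariate. *Nos3*, endothelial nitric oxide synthase, and *Sox18*, a factor of vessel formation, are not among these 3 and were chosen after their values were seen. They were higher by 0.86 and 0.72. None of 25 skeletal muscle genes was called, with a median of 0.06. *Ankrd1*, a stretch-induced ankyrin repeat protein of muscle that is also made by keratinocytes and fibroblasts in wounds, read 6.54, 6.22 and 5.76 against 10.58, 9.81 and 10.89. Its signal was higher by 4.26 ± 0.38 (adjusted p = 8.88e-05 by limma).

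Dermal genes were mostly not called. Of 26 collagens and matrix genes 1 was called (3.85%, against 3.98% of all genes), and the median was 0.04. The called gene was *Lum*, which encodes the small leucine-rich proteoglycan lumican (lower by 1.12, and by 0.53 with the *Gapdh* covariate). *Aspn*, asporin of the same family, read 9.13, 9.0 and 9.35 in the controls and 6.04, 6.56 and 7.38 in *Ahr*-/- skin, lower by 2.51 ± 0.29 (adjusted p = 0.000739 by limma) without overlap. *Dkk2*, a Wnt antagonist of the dermis, read 8.16, 8.41 and 8.22 against 5.91, 5.11 and 6.49. It was the only one of 20 Wnt genes called (5.0%, against 3.98% of all genes). *Col4a5*, a basement membrane collagen, read 6.51, 7.55 and 7.85 against 5.36, 5.23 and 5.09 (-2.08, adjusted p = 0.00337 by limma). *Akr1c14*, an aldo-keto reductase that acts on steroids, read 7.71, 7.68 and 8.31 against 4.46, 4.58 and 5.79, lower by 2.96, and *C1qtnf3*, a secreted C1q-like protein, was lower by 2.85. The controls agreed within 0.63 for *Akr1c14*, and the *Ahr*-/- arrays lay at least 1.89 below them. The other genes among the 20 largest called falls without overlap follow. *Gprin2* was lower by 2.76, *Gm11992* by 2.35, *Cttnbp2* by 2.30, the collectin *Colec11* by 2.28, the methyltransferase *Inmt* by 2.26, *Thrsp*, a regulator of fat synthesis, by 2.21, *Fcrls* by 2.20, *Aadacl2fm1* by 2.20, *Oas1f* of the oligoadenylate synthetase family by 2.20 and the C-type lectin *Clec4b1* by 2.15. With averaged probe sets, *Colec11* came to -1.32, *Cttnbp2* to -1.12 and *Thrsp* to -1.27 without a call. *Clec4b1* read 8.66, 8.75 and 8.85 in the controls and 6.86, 6.10 and 6.86 in *Ahr*-/- skin, so its controls lay close together and well above the other genotype.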

How the data were processed

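Total RNA of mouse skin was labelled and hybridised to Affymetrix arrays read at the 3' end of transcripts, 3 for each of 4 groups, which were assigned from the sample titles. The deposited values are log2 signals that the authors summarised per probe set by RMA with the affy package (version not given in the sources used here). The 45101 probe sets included 64 control sets, 932 sets of several genes and 9160 with no symbol, and leaving these out kept 34945 sets of 18193 genes. The columns of deposited log2 values were used as they stood, with no further scaling. limma (version 3.58.1, R 4.3.3) was fitted to 4 group means over all 12 arrays (8 residual and 4.44 prior degrees of freedom), with Benjamini-Hochberg adjustment over all genes. Tested on data simulated for the day 2 comparison over 18193 genes, it called 68% of genes changed by 1 log2 unit, 96% of those changed by 2 and 6 unchanged genes. The simulated noise was independent, with the same spread in all groups and no 3'/5' difference. These rates therefore do not cover the unequal spread and the 3'/5' differences of the arrays. Promoter counts and figures used Python 3.11.15, pandas 2.3.3, numpy 2.4.6 and matplotlib 3.10.9. The alternatives changed probe set choice, filter, scaling, variance model, arrays, covariates and threshold, and added the rank product named in the study's methods (9 pairwise ratios, 100 permutations, threshold 0.01).

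The comparison, the 66 gene lists and the tests were chosen with earlier results of these data known. No list was tested, and lists are described by counts and medians beside those of all genes. The genes named were drawn from *Ahr*, the 20 largest called rises and 20 largest called falls without overlap of the groups, up to 6 called members of each list with the largest differences, up to 3 members with the highest signal where fewer than 2 were called, and the study's own panels. Of these, *Ahr* and the largest rises and falls are all given, and list and panel members in part. *Pf4*, *Cd177*, *Ngp*, *Mpo*, *Sostdc1*, *Cyp1a1*, *Lor*, *Lcn2*, *Timp1*, *Krt5*, *Krt14*, *Nos3*, *Sox18* and the genes of the closing observations were chosen after their values were seen or as markers of skin.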

Additional observations from a re-analysis of the deposited data

Results flagged for a closer look

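For 61 of the genes named here, the genotype difference with IMQ differed from the genotype difference in untreated skin (limma, *Ahr*-/- minus *Ahr*+/- with IMQ minus the same without IMQ, adjusted p under 0.05 over all genes). For these genes the difference between the genotype effects is given on the log2 scale, positive where *Ahr*-/- skin gained more under IMQ. Among chemokine and neutrophil genes it was 3.97 for *Ppbp*, 4.62 for *Ccl3*, 3.70 for *Ccl4*, 2.10 for *Cxcr4*, 3.46 for *Trem1*, 3.22 for *Cd177*, 2.30 for *Ngp*, 2.01 for *Pglyrp1*, 3.61 for *Olfm4* and 2.53 for *Csf3r*. Among myeloid receptors and enzymes it was 4.81 for *Clec4d*, 4.43 for *Clec4e*, 3.23 for *Mcemp1*, 3.17 for *Cd300lf*, 4.67 for *Acod1*, 4.02 for *Hdc*, 3.29 for *Arg2*, 4.81 for *Chil3* and 3.06 for *Cd14*.

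Among cytokine genes it was 4.17 for *Il1b*, 2.01 for *Il18rap*, 1.75 for *Il1r1*, 1.04 for *Nlrp3*, 2.28 for *Osm* and 1.49 for *Tnf*, and it was 1.57 for the antimicrobial *Wfdc21*. Among remodelling and stretch genes it was 2.23 for *Plaur*, 2.48 for *Mmp10*, 2.72 for *Mmp9*, 1.64 for *Timp1*, 3.92 for *Ankrd1*, 3.03 for *Rrad*, 2.19 for *Mustn1* and 1.76 for *Xirp1*. The untreated difference of *Mmp9* was 0.89 and was not called.

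Among epidermal genes it was -4.15 for *Krt77*, -2.98 for *Krt1*, -2.85 for *Krt10*, -2.66 for *Lce1m*, -1.49 for *Scel* and -2.23 for *Dsg1a*. Among lipid, retinoid and prostaglandin genes it was -1.46 for *Acer1*, -1.38 for *Msmo1*, -2.19 for *Rdh11*, -2.04 for *Sdr16c5* and -1.36 for *Hpgd*. Among dermal and other genes it was -3.06 for *Aspn*, -2.44 for *Ogn*, -2.07 for *Omd*, -2.63 for *Ecm2*, -2.36 for *Col4a5*, -3.31 for *Dkk2*, -1.89 for *Sostdc1*, -3.76 for *Akr1c14*, -4.38 for *C1qtnf3* -2.39 for *Adgre1*, -3.57 for *Aadacl2fm1*, -3.48 for *Gm11992*, -3.16 for *Cttnbp2*, -3.06 for *Clec4b1*, -2.87 for *Colec11* and -2.82 for *Inmt*. The untreated difference had the opposite sign to that with IMQ for 47 of the 61 genes and was called for 0 of them. It reached a size of 1 for 4 of these, *C1qtnf3* (1.54), *Aadacl2fm1* (1.38), *Gm11992* (1.13) and *Ecm2* (1.05). The 61 genes were selected for a gap between the genotype effects, which favours opposite signs, so the count of 47 is a description only.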

How the results depend on the processing

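All 385 genes called higher and all 339 called lower kept their sign under every alternative except averaging the probe sets of a gene, where 384 higher genes did, and a minimum signal of 5, which tested 349 and 333 of them. The counts stayed within 1.5 times for all probe sets in 1 fit (373 higher, 705 in all) and for averaged sets, the minimum signal, median centring, repeated quantile normalization, a variance trend and no minimum fold (354 to 435 higher, 333 to 369 lower). They moved with array weights (996 higher, 1023 lower), the 6 IMQ arrays alone (529 lower), the *Gapdh* (27 and 0) or actin 3'/5' difference as a covariate (104 and 24), *Ahr*-/- replicate 3 alone (36 and 7), an adjusted p under 0.01 (146 and 69) and the rank product (122 and 86, of which 117 and 69 were shared). The cause was not tested. Leaving out 1 array gave 138 to 724 higher and 57 to 665 lower: without *Ahr*+/- IMQ replicate 2, 138 and 58, without replicate 3, 143 and 57, without *Ahr*-/- IMQ replicate 1, 217 and 188, without replicate 2, 154 and 63, without replicate 3, 724 and 562, without *Ahr*+/- untreated replicate 2, 582 and 665, and without *Ahr*-/- untreated replicate 1, 215 lower. With the replicate number as a block, 369 were called higher and 315 lower. Same-numbered IMQ arrays correlated at -0.003, -0.161 and -0.041 in their deviations. The labels state no pairing by number, and deviations from means of 3 arrays cannot exclude one. Of the called genes named by the rule or in the text, 50 of 98 higher and 16 of 67 lower lost the call in at most 3 settings. With 3 arrays a group, a spread among *Ahr*+/- arrays and 3'/5' differences that run with genotype, sizes are uncertain. The kept signs were largely set by calling the genes on these same arrays. Signals near the top of the range may be compressed, which was not tested.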

Other observations

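Several muscle and stretch genes stood among the called genes, while none of the 25 listed skeletal muscle genes was called. Of those 25 genes 8 lay higher on every *Ahr*-/- array and 0 lower, against 18.0% and 15.0% of all genes, with differences of up to 0.96. The called genes of this paragraph were chosen after their values were seen, so their number is a description. *Rrad*, a small GTPase of muscle, read 6.75, 6.64 and 6.31 in *Ahr*+/- replicates 1, 2 and 3 and 9.60, 9.97 and 9.20 in *Ahr*-/- replicates 1, 2 and 3, higher by 3.02 ± 0.23 (adjusted p = 3.42e-05 by limma). *Mustn1*, a musculoskeletal growth gene, was higher by 2.36, the BTB-kelch gene *Klhl40* by 2.03, *Ankrd2* and *Ankrd23*, relatives of *Ankrd1*, by 1.92 and 1.86, the small heat shock gene *Hspb7* by 1.65 and *Xirp1*, an actin-binding protein of muscle junctions, by 1.39. The groups of arrays did not overlap for these 7 genes. That held for 384 of the 385 genes called higher, so it adds nothing to the call. *Acta1* and *Myh1*, which encode the muscle actin and a fast myosin, differed by -0.02 and -0.08 and were not called.

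Other small leucine-rich matrix genes, also chosen after their values were seen, included *Ogn*, *Omd* and *Ecm2*. *Ogn* (osteoglycin) read 10.25, 10.74 and 11.04 in the controls and 8.30, 8.73 and 9.42 in *Ahr*-/- skin, lower by 1.85 (adjusted p = 0.0115 by limma). *Omd* and *Ecm2* were lower by 1.66 and 1.58, and *Omd* came to -0.95 with the *Gapdh* covariate and *Ecm2* to -0.80 with its probe sets averaged. *Dcn*, decorin of the same family, differed by -0.01. Of the basement membrane collagens, *Col4a3* and *Col4a4*, which assemble with *Col4a5*, were lower by 1.27 and 1.25 (*Col4a4* by 0.59 and not called with its 3 probe sets averaged). *Col4a1* differed by 1.02 in the other direction without being called (adjusted p = 0.075 by limma). Among called genes picked for their values, *Rdh11* was lower by 1.5, *Rdh9* by 1.47, *Sdr16c5* by 1.66 and *Aldh1a7* by 1.33, all of retinoid or aldehyde metabolism, of which no full list was counted. *Rdh11* came to -0.80 with the *Gapdh* covariate.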
